A study of Arabidopsis thaliana with 12 samples.

Results

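Photosystem II is the light-driven water-oxidising complex of the chloroplast membrane. This account covers 4 nuclear genes for its small proteins and helpers, PSBY, PSBW, PSB27 and LPA19, in Arabidopsis thaliana. The genes were taken by their symbols in the array's probe annotation, among 692 probes with a single gene there and 3439 probes in all, and each had 1 probe. PSBY (AT1G67740), PSB27 (AT1G03600) and LPA19 (AT1G05385) lie on chromosome 1 and PSBW (AT2G30570) on chromosome 2, by the RefSeq gene table. PSBY and PSBW encode structural subunits, and PSB27 and LPA19 assembly factors.

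The samples were total RNA from wild-type plants of ecotype Columbia 0, the common laboratory strain, 6 from plants 4 weeks old and 6 from plants 2 weeks old. The study compared the 2 ages. Within an age the samples carry numbers 1 to 6, and the labels give no organ, growth condition, treatment or number of plants, and they do not say whether the 6 are separate plants, so p-values measure only the spread between these samples. The organ could not be checked, because 0 of 26 marker loci for green tissue, flower, pollen, seed, root and senescence had a single-gene probe.

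The photosystem II core is built from chloroplast-encoded and nuclear-encoded proteins, and the small nuclear-encoded ones are imported and threaded into the thylakoid membrane. PSBY is made as a precursor that is cut into a pair of small membrane-spanning proteins. PSBW is a small membrane-spanning subunit that helps hold the core to its light-harvesting antenna. PSB27 and LPA19 are both related to the cyanobacterial Psb27 protein, which sits on immature photosystem II in the thylakoid lumen. PSB27 takes part in the repair of photosystem II after light damage, and LPA19 in the trimming of the D1 reaction-centre protein during assembly.

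The arrays of the 2 ages differed as a whole. The median deposited intensity of an array lay between 0.39 and 0.445 at 4 weeks and between 0.0946 and 0.116 at 2 weeks, on a scale that runs to 100 in each sample. No source used here says how the authors scaled the arrays. They were therefore quantile normalized for the main test, which gives every array the same distribution of values. Results are given beside the deposited values and beside median centring. There each array is divided by the median of its positive values, taken relative to the mean of these medians over the arrays in log2. A change is called where the Benjamini-Hochberg adjusted p over all tested features was below 0.05 in limma. The main fit does not pair samples by replicate number, and a fit with the number as a block is an alternative. All 4 genes lay above the low-value floor on all 12 arrays, and none reached the top of the scale.

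PSBY was lower at 4 weeks on every scale used. At 4 weeks its deposited intensity was 0.199 in the lowest sample, 1.27 at the median and 1.45 in the highest, and at 2 weeks these were 1.88, 7.15 and 7.72. The ages did not overlap, and samples 3 and 4 were the lowest of both ages. Quantile normalization put it at 0.703 ± 0.444 (SD, n = 6) in the older plants and 4.88 ± 1.93 in the younger, a log2 change of -3.13 (SE 0.62, limma adjusted p = 7.29e-04). The change was -2.76 in the deposited values (limma adjusted p = 0.00114) and -4.46 under median centring (limma adjusted p = 4.65e-05). In whole-tissue RNA, fewer cells that express a gene and less of its RNA per cell cannot be told apart.

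PSBW, the other structural subunit, showed no called change in the main fit. At 4 weeks its deposited intensity was 12.9 in the lowest sample, 27.2 at the median and 29.5 in the highest, and at 2 weeks these were 15.3, 26.1 and 34.7. The ages overlapped, and samples 5 and 6 were the lowest of both ages. The deposited values differed by -0.12 on the log2 scale (SE 0.28, 95% interval -0.74 to 0.50, limma adjusted p = 0.698). After quantile normalization the difference was 0.56 (95% interval -0.07 to 1.19, limma adjusted p = 0.109). PSBW was called higher there with replicate number as a block (limma adjusted p = 0.00709), as 35.2% of all features were. The block counts the 6 numbers as separate, although adjacent numbers deviated together. With adjacent numbers averaged and no block, PSBW was not called (limma adjusted p = 0.290). Under median centring PSBW was called lower, at -1.82 (limma adjusted p = 8.54e-05), and there the ages did not overlap. The direction of PSBW with age therefore depends on the scaling.

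PSB27 was lower in the older sample of every replicate number on all 3 scales. All 6 numbers were lower for 11.5% of all features in the deposited values, 30.3% after quantile normalization and 31.1% under median centring. At 4 weeks the deposited intensity of PSB27 was 0.512 in the lowest sample, 1.13 at the median and 2.63 in the highest, and at 2 weeks these were 0.835, 1.76 and 3.75. The ages overlapped in these values and after quantile normalization. Under median centring they did not, as for 25.2% of all features with 4 weeks lower. Samples of one age differed widely by number, with 1 and 2 the highest and 3 and 4 the lowest at both ages. Quantile normalization put it at 1.18 ± 0.916 (SD, n = 6) in the older plants and 2.22 ± 1.01 in the younger. The log2 change of -1.17 (SE 0.50, 95% interval -2.27 to -0.07) did not pass in the main fit (limma adjusted p = 0.0585). With replicate number as a block PSB27 was called lower on each scale, with limma adjusted p-values of 0.00151 after quantile normalization, 5.83e-04 in the deposited values, where the change was -0.62, and 1.47e-06 under median centring, where it was -2.32. The block fit called 33.3%, 11.8% and 32.4% of all features lower on these 3 scales. It counts the 6 numbers as separate, although adjacent numbers deviated together. With adjacent numbers averaged and no block, PSB27 was not called after quantile normalization (limma adjusted p = 0.208).

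The direction of LPA19 turned with the scaling. At 4 weeks its deposited intensity was 0.113 in the lowest sample, 0.135 at the median and 0.194 in the highest, and at 2 weeks these were 0.048, 0.0819 and 0.146. The ages overlapped, although LPA19 was higher in the older sample of every number, as were 73.9% of all features. The deposited values were called higher, at 0.74 (SE 0.25, limma adjusted p = 0.0134). Quantile normalization put it at 0.0814 ± 0.0207 (SD, n = 6) in the older plants and 0.227 ± 0.0721 in the younger, lower in all 6 numbers and without overlap between the ages. That is a called change of -1.46 (SE 0.23, limma adjusted p = 1.26e-04). Median centring also called it lower, at -0.96 (limma adjusted p = 0.00583). The median log2 change over all tested features was 1.82 in the deposited values, 0.10 after quantile normalization and 0.14 under median centring, and LPA19 lay below that median on each scale.

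**Figure D1:**
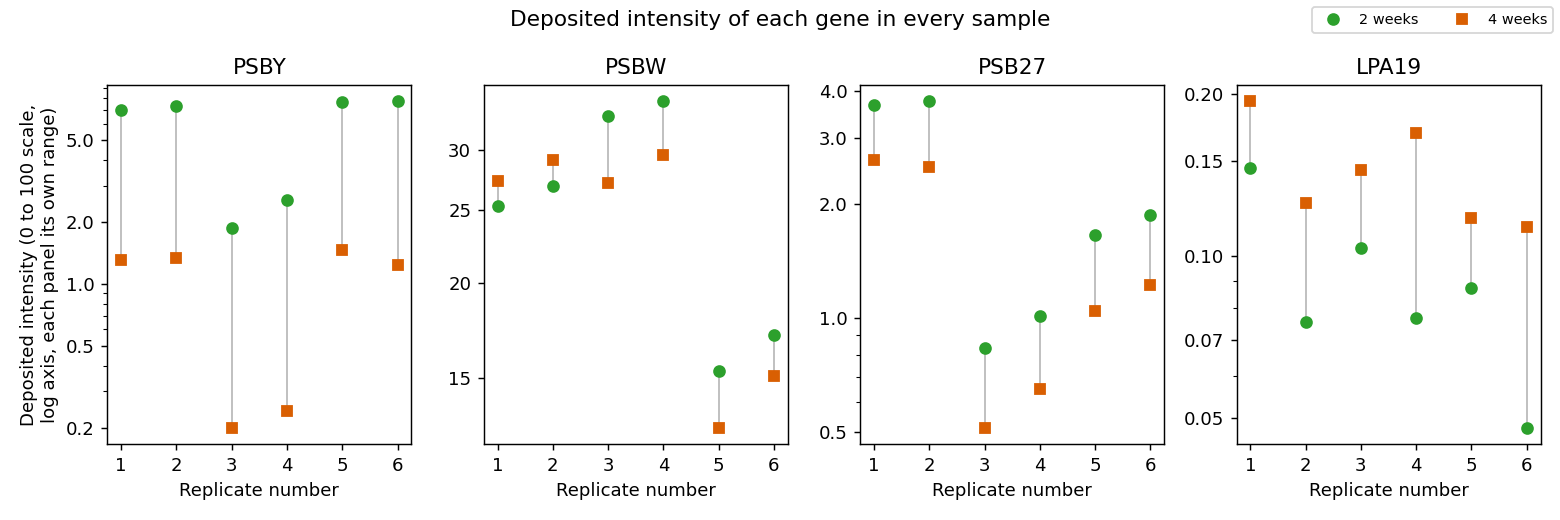
Deposited intensity (log axis, 0 to 100 scale, each panel with its own range) of the 4 genes against replicate number, with squares for the 6 samples at 4 weeks, circles for the 6 at 2 weeks and a grey line joining the ages of 1 number. PSBY is lower at 4 weeks in every number, samples 3 and 4 are low for PSBY and PSB27 at both ages, and samples 5 and 6 are low for PSBW at both ages.

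Of the 4 genes, limma called 2 lower at 4 weeks after quantile normalization, PSBY and LPA19, and 0 higher. Over all 2961 features tested, 31.1% were called lower and 33.6% higher, so a call as such is common on these arrays. In the deposited values 1 gene was called lower, PSBY, against 11.0% of 2966 features, and 1 higher, LPA19, against 75.7%. Under median centring all 4 were called lower, against 31.1% of 2965 features. PSBY, called lower on each of the 3 scales, is the gene of the 4 whose call did not depend on the scaling. Absence of overlap between the ages, with 4 weeks lower, was seen for 23.7% of all features after quantile normalization and 9.00% in the deposited values. Under median centring the share was 25.2%. The median log2 change of the 4 genes was -1.32 after quantile normalization, against 0.10 for all features, -0.37 against 1.82 in the deposited values and -2.07 against 0.14 under median centring.

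**Figure D2:**
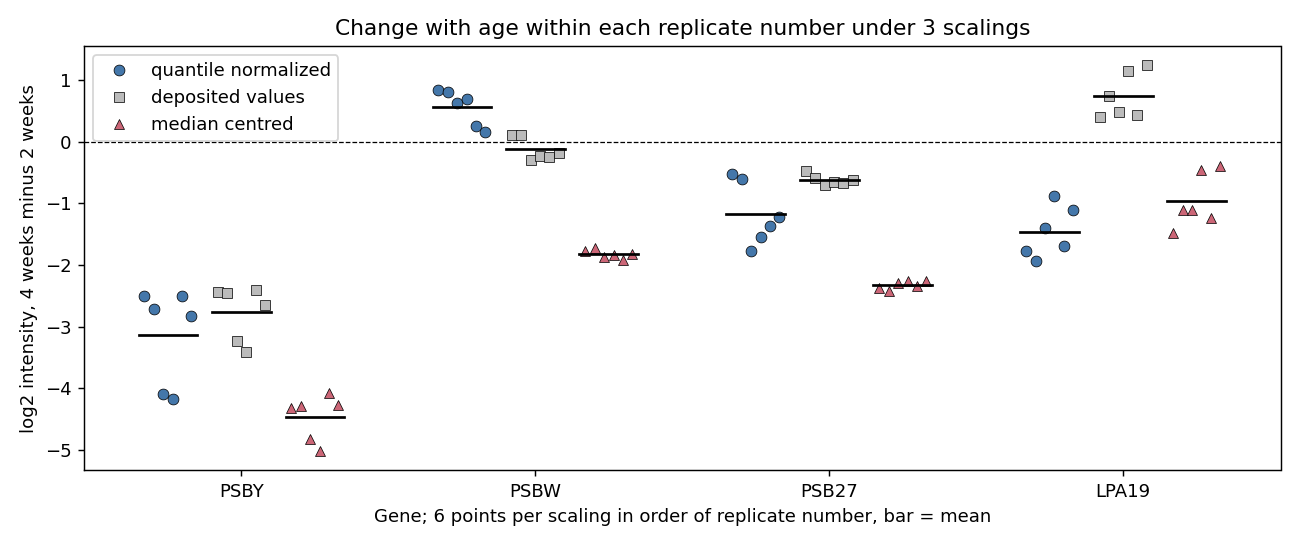
Change in log2 intensity, 4 weeks minus 2 weeks, within each of the 6 replicate numbers, for the 4 genes under quantile normalization (circles), in the deposited values (squares) and under median centring (triangles), with bars at the means. PSBY and PSB27 lie below 0 for every number on every scale, while PSBW and LPA19 change sign between scales.

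Within the replicate numbers the sizes of the changes can be read without the spread between numbers, but they differ by scale. In the deposited values PSB27 was lower at 4 weeks by between 1.39-fold and 1.63-fold in the 6 numbers, while its mean level at 4 weeks differed 4.46-fold between the highest and the lowest pair of adjacent numbers. PSB27 was lower by between 1.44-fold and 3.40-fold after quantile normalization and by between 4.76-fold and 5.33-fold under median centring. In the deposited values PSBY was lower by between 5.29-fold and 6.23-fold in numbers 1, 2, 5 and 6, and by 9.42-fold and 10.6-fold in numbers 3 and 4. PSBW was higher by 1.08-fold in numbers 1 and 2 and lower by between 1.13-fold and 1.22-fold in numbers 3 to 6. LPA19 was higher by between 1.33-fold and 2.36-fold.

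The larger PSBY difference in numbers 3 and 4 was tested as an interaction of age with the 3 pairs of adjacent numbers, 1 with 2, 3 with 4 and 5 with 6. These pairs were taken up after the samples in them had been seen to deviate together. The larger difference had itself been seen in these same values, so the p-values below are no independent support for it. After quantile normalization the limma F test called PSBY (adjusted p = 0.0178), as it did 7.67% of all features. PSBY was not called in the deposited values (adjusted p = 0.0914, F test in limma) or under median centring (adjusted p = 0.182). PSB27 stood at an adjusted p of 0.05, just above the threshold, after quantile normalization and of 0.883 in the deposited values in the same limma test. PSBW and LPA19 were not called on any of the 3 scales.

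Each gene had its lowest mean in the same pair of adjacent numbers at both ages and on all 3 scales. That pair was 3 with 4 for PSBY and PSB27 and 5 with 6 for PSBW and LPA19. The 3 scales hold the same measurements, and the share of all features with such a lowest pair was not computed. For PSBY, the mean deposited intensity at 4 weeks was 1.32 in samples 1 and 2, 0.221 in samples 3 and 4 and 1.35 in samples 5 and 6. At 2 weeks these means were 7.15, 2.22 and 7.71, so the same pair was low at both ages. PSB27 had 3 tiers, at 2.57, 0.58 and 1.13 for the same pairs at 4 weeks and at 3.71, 0.924 and 1.76 at 2 weeks. PSBW stood at 28.2, 28.3 and 14.0 at 4 weeks and at 26.1, 34.0 and 16.2 at 2 weeks, with samples 5 and 6 low. Thus PSB27, an assembly factor, was lowest in the pair that was also lowest for the subunit PSBY, and PSBW was lowest in another.

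Samples of 1 pair lay close together for PSBY, PSBW and PSB27. The largest gap within a pair in the deposited values was 1.37-fold for PSBY, 1.17-fold for PSBW and 1.26-fold for PSB27. Between pairs, the highest and lowest mean of an age differed by up to 6.11-fold for PSBY, 2.1-fold for PSBW and 4.46-fold for PSB27. For LPA19 the largest gap within a pair was 1.93-fold and the largest difference between pairs 1.62-fold. The limma F test of replicate number, with age in the fit, called PSB27 in the deposited values (adjusted p = 0.00547) and PSBY too (adjusted p = 0.0272), among 1.28% of all features, and did not call PSBW (adjusted p = 0.0782) or LPA19 (adjusted p = 0.394). Under median centring this limma test also called PSB27 (adjusted p = 0.00567) and PSBY (adjusted p = 0.0160), among 1.28% of all features. It did not call PSBW (adjusted p = 0.0529) or LPA19 (adjusted p = 0.434) there. After quantile normalization 0 of the 4 genes passed, with adjusted p-values in limma from 0.112 for PSB27 to 0.386 for LPA19, and 0.946% of all features were called. What the numbers stand for was not tested, since the labels do not say.

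**Figure D3:**
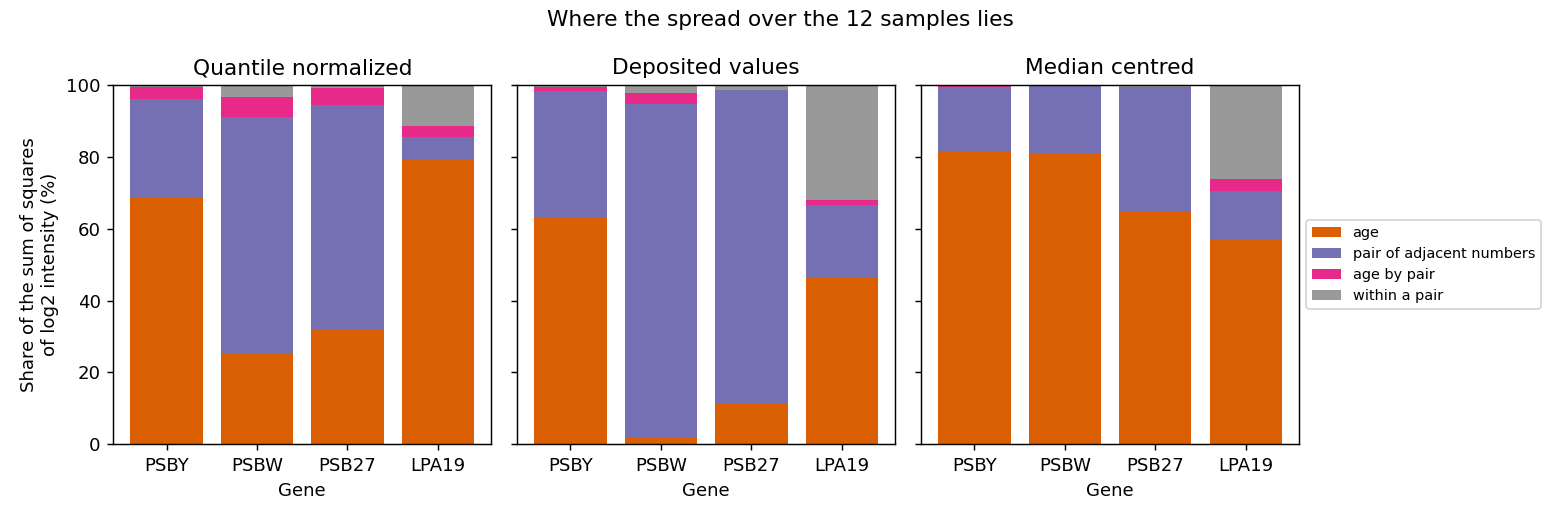
Share of the sum of squares of log2 intensity over the 12 samples (%) that lies between the ages, between the 3 pairs of adjacent numbers, in age by pair and within a pair, for each gene, after quantile normalization (left), in the deposited values (middle) and under median centring (right). The pairs hold 93.1% for PSBW and 87.1% for PSB27 in the deposited values, and 18.9% and 34.9% under median centring, where age holds most for all 4 genes.

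As shares of the sum of squares in the deposited log2 values, the pairs of numbers held 93.1% for PSBW, 87.1% for PSB27, 35.0% for PSBY and 20.2% for LPA19. The median over all tested features was 5.38%, and on this scale 5 of 2966 features had a higher share than PSBW and 17 a higher share than PSB27. Age held 1.66%, 11.4%, 63.2% and 46.5% for the same 4 genes, against a median of 81.8%. After quantile normalization the pairs held 65.9% for PSBW and 62.6% for PSB27, against a median of 11.5%. Under median centring they held 18.9% for PSBW, with 1083 features higher, and 34.9% for PSB27, with 593 higher, while age held 80.8% and 64.6%. The large shares of the pairs for PSBW and PSB27 thus depend on the scaling. These shares describe the 12 samples and carry no test.

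A factor common to all probes of an array cancels in the difference between 2 genes on it, so such differences are the same in the deposited and the median-centred values. The size of a difference also holds the brightness of each probe, and its change with age alone was compared, for all 6 pairs of the 4 genes. The exact two-sided permutation test over the 6 and 6 samples cannot give a p below 0.00216, and p-values were adjusted over the 6 pairs. Relative to PSBY, each of the other 3 genes was higher at 4 weeks in 6 of 6 numbers, as were 95.2% of all features. These 3 differences share PSBY, which was lower at 4 weeks while most features were higher in the deposited values. The ages did not overlap, with 4 weeks higher, for 80.5% of all features relative to PSBY. PSB27 relative to PSBY stood at -1.44 ± 0.553 (SD, n = 6) in the younger plants and 0.70 ± 0.775 in the older on the log2 scale, without overlap, a 4.42-fold change (exact permutation adjusted p = 0.00649). LPA19 relative to PSBY changed 11.3-fold, also without overlap and at the same adjusted p. PSBW relative to PSBY changed 6.23-fold, from 2.3 ± 1.34 (SD, n = 6) to 4.94 ± 1.68, with overlap (exact permutation adjusted p = 0.0346). It stayed called with 5 of the 12 samples left out in turn, and otherwise reached an adjusted p of up to 0.0693 in the exact test.

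By this measure PSBW relative to PSBY, the 2 structural subunits, passed, and LPA19 relative to PSB27, the 2 assembly factors, did not. These differences were not tested against each other, so they do not set the subunits apart from the assembly factors. LPA19 relative to PSB27 was higher at 4 weeks in 6 of 6 numbers, as were 81.7% of all features, by 1.36 on the log2 scale, but did not pass over the samples (exact permutation adjusted p = 0.0571). PSB27 relative to PSBW was lower at 4 weeks in 6 of 6 numbers, against 10.1% of all features, by between -0.70 and -0.41 by number, and did not pass either (exact permutation adjusted p = 0.494). Both passed in an exact sign-flip test with replicate number as a block (adjusted p = 0.0312, the smallest that test can give). That test also counts the 6 numbers as separate, although adjacent numbers deviated together. LPA19 relative to PSBW was higher by 0.86 (exact permutation adjusted p = 0.0357), and stayed called with 3 of the 12 samples left out in turn. PSBW itself changed by -0.12 in the deposited values, where the median change over all tested features was 1.82. The share of all features higher relative to PSBW was not computed. After quantile normalization, which does not keep such differences, LPA19 relative to PSBW turned to -2.03. It was called in that opposite direction, without overlap between the ages (exact permutation adjusted p = 0.00433). The share of all features lower relative to PSBW on that scale was not computed either, so neither call of LPA19 relative to PSBW can be set against it. LPA19 relative to PSB27 turned to -0.29 and was not called. PSBW and PSB27 relative to PSBY kept their direction there, at 3.69 and 1.96, and so did LPA19 relative to PSBY, at 1.67, which was no longer called (exact permutation adjusted p = 0.0779).

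**Figure D4:**
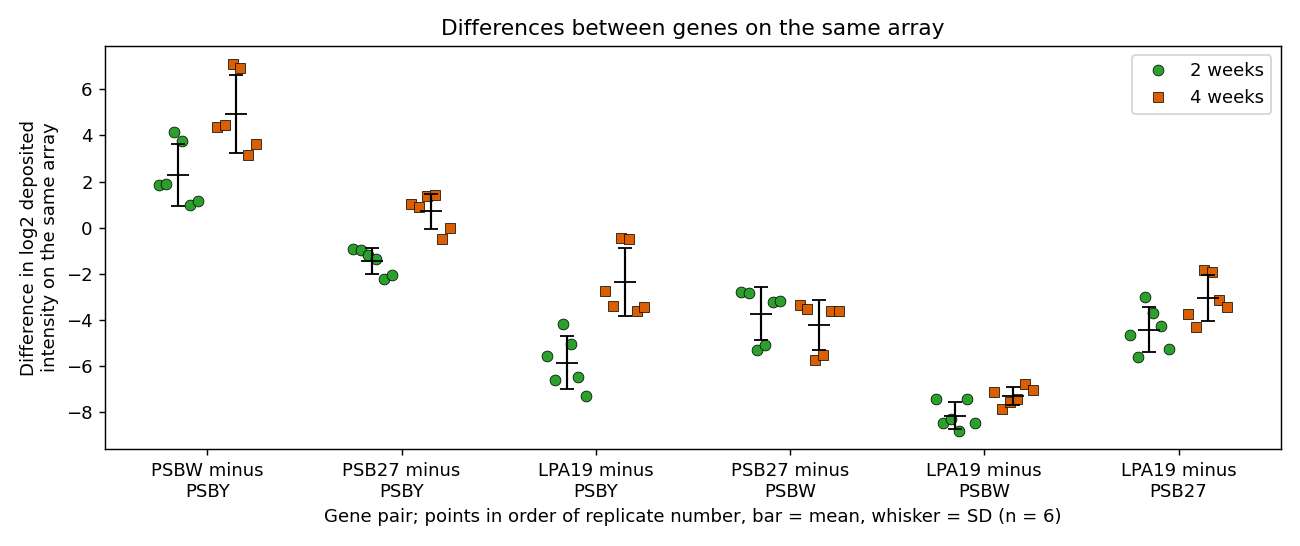
Difference in log2 deposited intensity between 2 genes on the same array for the 6 gene pairs, with circles for 2 weeks, squares for 4 weeks, bars at the means and whiskers of 1 SD (n = 6). The 3 pairs with PSBY are higher at 4 weeks, and the ages do not overlap for PSB27 minus PSBY and LPA19 minus PSBY.

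With adjacent numbers averaged, 3 samples stood against 3. PSBY and LPA19 were then still called lower after quantile normalization (limma adjusted p = 0.0234 and 0.00418), as were 25.5% of all features, and PSBW and PSB27 were not (limma adjusted p = 0.290 and 0.208). The exact permutation test cannot go below 0.1 at this size, and PSB27 relative to PSBY, LPA19 relative to PSBY and LPA19 relative to PSBW reached that smallest p.

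Of 63 loci listed for photosystem II subunits, assembly and repair factors and antenna proteins, 6 had a single-gene probe, the 4 genes and LHB1B2 and AT1G54500. Of these 6, 4 were called lower after quantile normalization, against 31.1% of all features, 0 higher, against 33.6%, and 2 did not pass. In the deposited values 3 were called lower and 1 higher, against 11.0% and 75.7%, and under median centring all 6 were called lower, against 31.1%. LHB1B2, a chlorophyll-binding antenna protein of photosystem II, lay between 9.06 and 15.3 in deposited intensity at 4 weeks and between 32.5 and 56.3 at 2 weeks, without overlap, and was lower on each scale. AT1G54500, from the list of assembly and repair factors, lay between 0.362 and 0.627 at 4 weeks and between 0.507 and 0.719 at 2 weeks, with overlap. It was called lower in the deposited values, at -0.51 (limma adjusted p = 0.00868), and after quantile normalization, at -1.75 (limma adjusted p = 1.63e-06). Its direction was thus that of PSB27 on each scale, and on the deposited scale the opposite of LPA19.

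The genes with the most similar pattern were sought among 453 other named genes above the floor on all 12 arrays, by Pearson's r of normalized log2 intensity over the 12 samples. These samples share age and numbers, so r is a description. For PSBY they were HEMA3, a glutamyl-tRNA reductase gene of the tetrapyrrole pathway (r = 0.987), AT3G54210 (r = 0.960) and ILA (r = 0.916). After the age means were subtracted these were 0.966, 0.978 and 0.804. For PSB27 they were AT1G79480 (r = 0.926), AT2G44760 (r = 0.908) and HEMA3 (r = 0.878), and for PSBW AT2G43760 (r = 0.943), AT2G30320 (r = 0.938) and AT5G10920 (r = 0.934). For LPA19 they were THIC, the thiamine synthesis enzyme (r = 0.942), CML41 (r = 0.932) and AT1G54500 (r = 0.932), and less the age means these were 0.693, 0.678 and 0.610. Among the 4 genes themselves, PSBY and PSB27 had r = 0.831, which was 0.789 less the age means and 0.732 in the deposited values. PSBY and PSBW had r = -0.673, which was -0.533 less the age means and -0.262 in the deposited values. PSBY and LPA19 had r = 0.645, which turned to -0.365 less the age means and to -0.650 in the deposited values. The other 3 pairs of genes had r between -0.307 and 0.491, between -0.0264 and 0.352 less the age means and between -0.149 and 0.25 in the deposited values.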

How the data were processed

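Total RNA of 12 samples was measured on expression arrays, and the deposited table gives 1 intensity per probe and sample on a linear scale. How the authors made these intensities, and the array's genome build, are not given in the sources used here. All 12 columns were used. Groups and replicate numbers came from the sample titles. Of 3439 probes, 692 had 1 gene in the platform annotation, 870 had several and 1877 were unlisted, and 690 of the 692 matched the RefSeq gene table (TAIR10.1, used for names and chromosomes).

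The medians of the arrays' positive intensities spanned 1.90 in log2, so arrays were quantile normalized. Values below the 1st percentile of positive values, 0.0152, were raised to it before log2. Probes above this floor on at least 6 arrays were kept, and probes of 1 gene were averaged, which left 2961 features. limma 3.58.1 in R 4.3.3 (lmFit, eBayes, two-sided) tested 4 weeks minus 2 weeks and, in another fit, replicate number by F test. Differences between genes used log2 deposited intensity and exact permutation tests in scipy 1.17.1. The age fit without a block, the F tests of replicate number and of age by pair, and the exact permutation test over samples were tested on simulated data. The fits with a block, other eBayes settings or averaged numbers, and the sign-flip test, were not. The number of arrays limits the precision.

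Deviations from the age means correlated between same-numbered samples with r from 0.157 to 0.443 across genes, above 0.1 for each number. The numbers were therefore taken to pair the samples in the block and sign-flip tests. The main limma age fit and the main exact permutation tests did not use this pairing. The labels do not say what the numbers mark. Within an age, adjacent numbers correlated from 0.01 to 0.503 and others from -0.47 to -0.22. Alternatives were the deposited values, median centring, other floors and filters, eBayes settings, the block, averaging of adjacent numbers and left-out samples. The named genes were the 4 members, the other measured genes of the photosystem II lists, and for each member the 3 named genes of highest r. Members, lists and the adjacent pairs were chosen with earlier results of these data known.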

Additional observations from a re-analysis of the deposited data

How the results depend on the processing

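PSBY kept its direction and call in the 14 other settings, and with each of the 12 samples left out its change ran from -3.36 to -2.72. LPA19 reversed in the deposited values, to 0.74 with and without the replicate block, and the filter leaving out the dimmest 25% of features dropped it. PSBW reversed in the deposited values, to -0.12 with and without the block, and under median centring, to -1.82 with and without it. PSBW was called higher, at 0.56, with the replicate block, and at 0.74 without numbers 5 and 6. With 1 sample left out PSBW ran from 0.44 to 0.74, and was called without 4-week sample 5 (0.74) or 6 (0.71). PSB27 was called lower, at -1.17, with the floor at the 5th percentile, without the dimmest 25%, with trend and robust eBayes and with the replicate block. It was called at -1.47 without numbers 1 and 2, at -2.32 under median centring with or without the block, and at -0.62 in the deposited values with the block. With 1 sample left out it ran from -1.45 to -0.89, and was called without 4-week sample 1 (-1.45) or 2 (-1.44) or 2-week sample 3 (-1.33). The deposited values called 2245 features higher and 327 lower, against 994 and 920 after quantile normalization. The F value of replicate number passed for PSBY in the deposited values, at 26.2, and under median centring, at 35.7, against 9.72 in the main setting, and for PSB27 at 69.8 and 71.6, against 14.6.

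Among within-array differences, the quantile-normalized values took LPA19 less PSBY to 1.67, no longer called, and called PSB27 less PSBW, at -1.73. They reversed LPA19 less PSBW, to -2.03, called in that direction, and LPA19 less PSB27, to -0.29, not called. The replicate block called PSB27 less PSBW, at -0.50, and LPA19 less PSB27, at 1.36, and changed no other call of a difference. With adjacent numbers averaged, PSBW, PSB27 and LPA19 less PSBY, at 2.64, 2.14 and 3.50, and LPA19 less PSBW, at 0.86, could not pass at 3 against 3. Without numbers 1 and 2 these 4 lost their calls at 2.68, 2.26, 3.75 and 1.06, and without 5 and 6 at 2.80, 2.28, 3.57 and 0.77, where 4 samples an age remained. Without numbers 3 and 4, LPA19 less PSBW lost its call, at 0.75, and PSB27 less PSBW was called, at -0.54. With 1 sample left out, PSBW less PSBY ran from 2.21 to 3.01 and lost its call without 4-week samples 1, 3 or 4 or 2-week samples 1, 2, 5 or 6, with adjusted p up to 0.0693 in the exact permutation test. LPA19 less PSBW ran from 0.73 to 1.01 and lost its call without 4-week samples 1, 3, 4, 5 or 6 or 2-week samples 2, 3, 4 or 6, with adjusted p up to 0.0714 in that test. LPA19 less PSB27 ran from 1.11 to 1.64 and was called without 4-week sample 2 (1.61) or 2-week sample 3 (1.64). PSB27 less PSBW ran from -0.81 to -0.20. The cause of these differences was not tested. How far low signal limits LPA19 was not tested.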
